A study of Mus musculus with 4 samples.

Results

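The genes flanking Ppm1d on mouse chromosome 11 were described as a set of 49 genes that lie beside the targeted gene and could be inherited together with its altered allele. The set was given as a list of names, 15 before Ppm1d and 34 after it in chromosome order, and all 49 were on chromosome 11 in the RefSeq annotation of assembly GRCm38.p6. Of the 49, 45 had a probe set assigned to a single gene symbol and 39 passed the filter on low signal, out of 11547 genes that passed in the whole series and 18193 gene symbols in all. Each gene was represented by its brightest probe set by mean signal over the 4 arrays.

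Embryonic fibroblasts of the mouse, connective-tissue cells cultured from embryos, gave RNA that was hybridized to Affymetrix Mouse Genome 430 2.0 arrays, with 1 array in each of 4 groups. These were cells labelled Wip1-/- at 0 h without irradiation, Wip1+/+ at 0 h without irradiation, Wip1-/- harvested 4 h after 5 Gy of gamma radiation, and Wip1+/+ harvested 4 h after 5 Gy. Strain background, embryo age, the number of embryos or cultures behind each array and the targeting construct were not stated in the sources used here. With 1 array per group no test was made and no p-value is given. A gene was counted when it differed at least 2-fold between 2 arrays.

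Wip1 is the phosphatase that Ppm1d encodes, which dephosphorylates p53 and kinases of the DNA damage response. A gene altered by targeting in embryonic stem cells is passed on with the chromosome segment around it, so close neighbours of the altered gene can keep the sequence of the stem cell strain after crosses to another strain. Neighbours can then differ between mutant and control cells in expression or in how well they match an array probe, which makes them a usual check in knockout studies.

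The order of the genes allowed the neighbouring upstream windows of 2 measured members to be shown. Prr11, a gene active in dividing cells, and Ska2, a subunit of the complex that ties kinetochores to spindle microtubules, lie head to head, with start sites within 1 kb of each other on opposite strands. Start sites were available for 44 of the 49 genes. Of the 5 such pairs found among these, only this one had both genes past the filter. The 250 bases before each start are given from RefSeq, 5′ to 3′ on the gene's own strand, with CCAAT or its reverse complement ATTGG in capitals. The Prr11 window is chr11:87108715-87108964 on the minus strand and the Ska2 window chr11:87109011-87109260 on the plus strand, both in GRCm38.p6.
Prr11: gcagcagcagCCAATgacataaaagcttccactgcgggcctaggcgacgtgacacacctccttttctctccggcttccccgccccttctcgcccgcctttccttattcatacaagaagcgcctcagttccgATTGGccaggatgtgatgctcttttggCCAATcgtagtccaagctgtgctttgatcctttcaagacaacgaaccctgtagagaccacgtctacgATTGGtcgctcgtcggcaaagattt
Ska2: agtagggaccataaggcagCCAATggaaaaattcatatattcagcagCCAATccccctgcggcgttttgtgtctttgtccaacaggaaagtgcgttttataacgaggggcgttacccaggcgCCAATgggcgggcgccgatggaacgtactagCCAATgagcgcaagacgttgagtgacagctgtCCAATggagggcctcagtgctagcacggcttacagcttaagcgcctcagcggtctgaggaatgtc
CCAAT, searched on both strands, occurred 4 times in the Prr11 window and 5 times in the Ska2 window. It was present in 33.8% of the 32851 upstream windows of the same length in the table, and in 13 of the 44 members with a window. These shares count windows with any match. How many windows held 4 or 5 matches was not counted. A match of letters is a description and not a binding site.

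Trim25, a ubiquitin ligase that activates the RNA sensor RIG-I and is itself induced by interferon, was the only one of the 25 members with several probe sets past the filter in which every probe set was lower on both arrays labelled Wip1-/- than on both Wip1+/+ arrays. It was singled out after its values were seen. The share of all genes with several probe sets that met this rule was not counted, so whether 1 of 25 is unusual cannot be said. With arrays scaled to the median of brighter probe sets, the unirradiated log2 ratio of its brightest probe set was 0.014. Under that setting Trim25 did not meet the rule. By the brightest probe set alone, 18.7% of all genes were lower on both arrays labelled Wip1-/-. The 250 bases before its start, chr11:88999153-88999402 on the plus strand of GRCm38.p6, are given from RefSeq because interferon acts on many genes through upstream elements.
Trim25: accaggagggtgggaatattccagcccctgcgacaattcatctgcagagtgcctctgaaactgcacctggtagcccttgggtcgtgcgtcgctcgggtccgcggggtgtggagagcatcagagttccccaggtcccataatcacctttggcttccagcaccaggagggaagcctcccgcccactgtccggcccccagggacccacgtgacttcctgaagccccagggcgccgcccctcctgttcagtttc
The core of the interferon-stimulated response element, GAAA followed after 2 unspecified bases by another GAAA, was searched on both strands and was not in this window, so no base is in capitals. It was in 2.98% of all windows. An element that reaches past the end of the window would be missed by this search.

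The arrays were not equal in quality. Over 18 spike-in hybridization controls the SD of the log2 ratio was 0.44 to 0.47 in the 3 array pairs with the unirradiated array labelled Wip1-/-, and 0.074 to 0.103 in the 3 pairs without it. That array held the highest or lowest of the 4 readings in 32 of the 39 members and in 74.0% of all measured genes. It enters the comparison of genotypes without irradiation and the irradiation comparison of cells labelled Wip1-/-, but not the comparison of genotypes after irradiation. Fibroblast markers were bright on all arrays, with summed signals of 260365 to 367240 on the arrays labelled Wip1-/- and 231544 to 242895 on the Wip1+/+ arrays over 12 of 13 listed genes. Macrophage markers, 16 of 19 measured (Itgam, Aif1 and Cx3cr1 had no value past the filter), summed to 2652 and 3072 on the arrays labelled Wip1-/- and to 10864 and 10979 on the Wip1+/+ arrays. The sums over 5 of 6 epithelial markers were 2142 and 2177 on the arrays labelled Wip1-/- and 1557 and 1609 on the Wip1+/+ arrays. Over 3 of 6 endothelial markers they were 347 and 405, against 433 and 462. In bulk RNA, fewer cells of a type and less RNA per cell cannot be told apart.

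Ppm1d itself was not lower in the cells labelled Wip1-/- by its brighter probe set, which read 504 and 375 on the Wip1-/- and Wip1+/+ labelled arrays without irradiation, and 482 and 364 after it. Its other probe set read 219 and 317 without irradiation, and 561 and 463 after it. The position of these probes relative to the altered exons was not stated in the sources used here. The signal is therefore no check of the labels, and the knockout arrays are called arrays labelled Wip1-/-.

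The comparison of genotypes without irradiation showed 5 flanking genes at least 2-fold apart. Usp32, Tubd1, Smg8 and Srsf1 were lower on the array labelled Wip1-/-, and Myo19 was higher. This is 12.8% of the 39 measured members, where 12.0% of all measured genes were at least 2-fold apart. By direction, 10.3% of members were lower and 2.56% higher, where 6.83% and 5.14% of all genes were. Scaling to the median of brighter probe sets gave 4 lower and 2 higher, with Prr11 as the added gene. Quantile normalization and cyclic loess each gave 5 lower and 1 higher, with Mrm1 as the added gene. Probe sets of the same gene differed in their log2 ratio by an SD of 0.65 in this comparison over all genes and 0.71 over the 25 members with several. This SD compares probe sets on the same arrays and does not cover differences between cultures.

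Usp32, a deubiquitinating enzyme that sits 3 measured genes before Ppm1d, read 1125 on the array labelled Wip1-/- and 2553 on the Wip1+/+ array, which is 2.27-fold lower. After irradiation it read 2906 and 3122, which is 1.07-fold lower. The unirradiated array labelled Wip1-/- was thus the single low reading of 4. Its 2 other probe sets past the filter had unirradiated log2 ratios of -0.22 and, with the Wip1-/- reading under the floor, at most -1.27. The latter passed the filter only through a high reading of 111.9 on the unirradiated Wip1+/+ array, so it adds no support. The floor is a signal of 46.5, and lower values were raised to it.

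Srsf1, a splicing factor, read 3920 against 9289 without irradiation, 2.37-fold lower on the array labelled Wip1-/-, and 8075 against 8280 after it. The low reading was again confined to the unirradiated array labelled Wip1-/-. Its probe sets disagreed. A second one read 2391 against 6013, while those left gave log2 ratios from -0.49 to 0.36 without irradiation. After irradiation all 6 lay between -0.16 and 0.25.

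Smg8, a regulator of the kinase that drives nonsense-mediated mRNA decay, read 226 against 489 without irradiation and 453 against 361 after it. It was 2.16-fold lower on the array labelled Wip1-/- in the first comparison and 1.25-fold higher in the second. Tubd1, delta-tubulin of the centriole, read 97.9 against 228.4, which is 2.33-fold lower, and 157.1 against 188.4 after irradiation. For Tubd1 both arrays labelled Wip1-/- lay below both Wip1+/+ arrays, while for Smg8 the groups overlapped. Each had 1 probe set.

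Myo19, a mitochondrial myosin, was the one gene at least 2-fold higher. It read 411 on the array labelled Wip1-/- and 198 on the Wip1+/+ array without irradiation, 2.07-fold higher, and 394 and 317 after it, 1.24-fold higher. Here the Wip1+/+ unirradiated array was the low one, and both arrays labelled Wip1-/- lay above both Wip1+/+ arrays. Only 1 of its 2 probe sets passed the filter. Just under 2-fold were Mrm1, a mitochondrial rRNA methyltransferase, with a log2 ratio of -0.96, and Prr11 with 0.96.

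**Figure D1:**
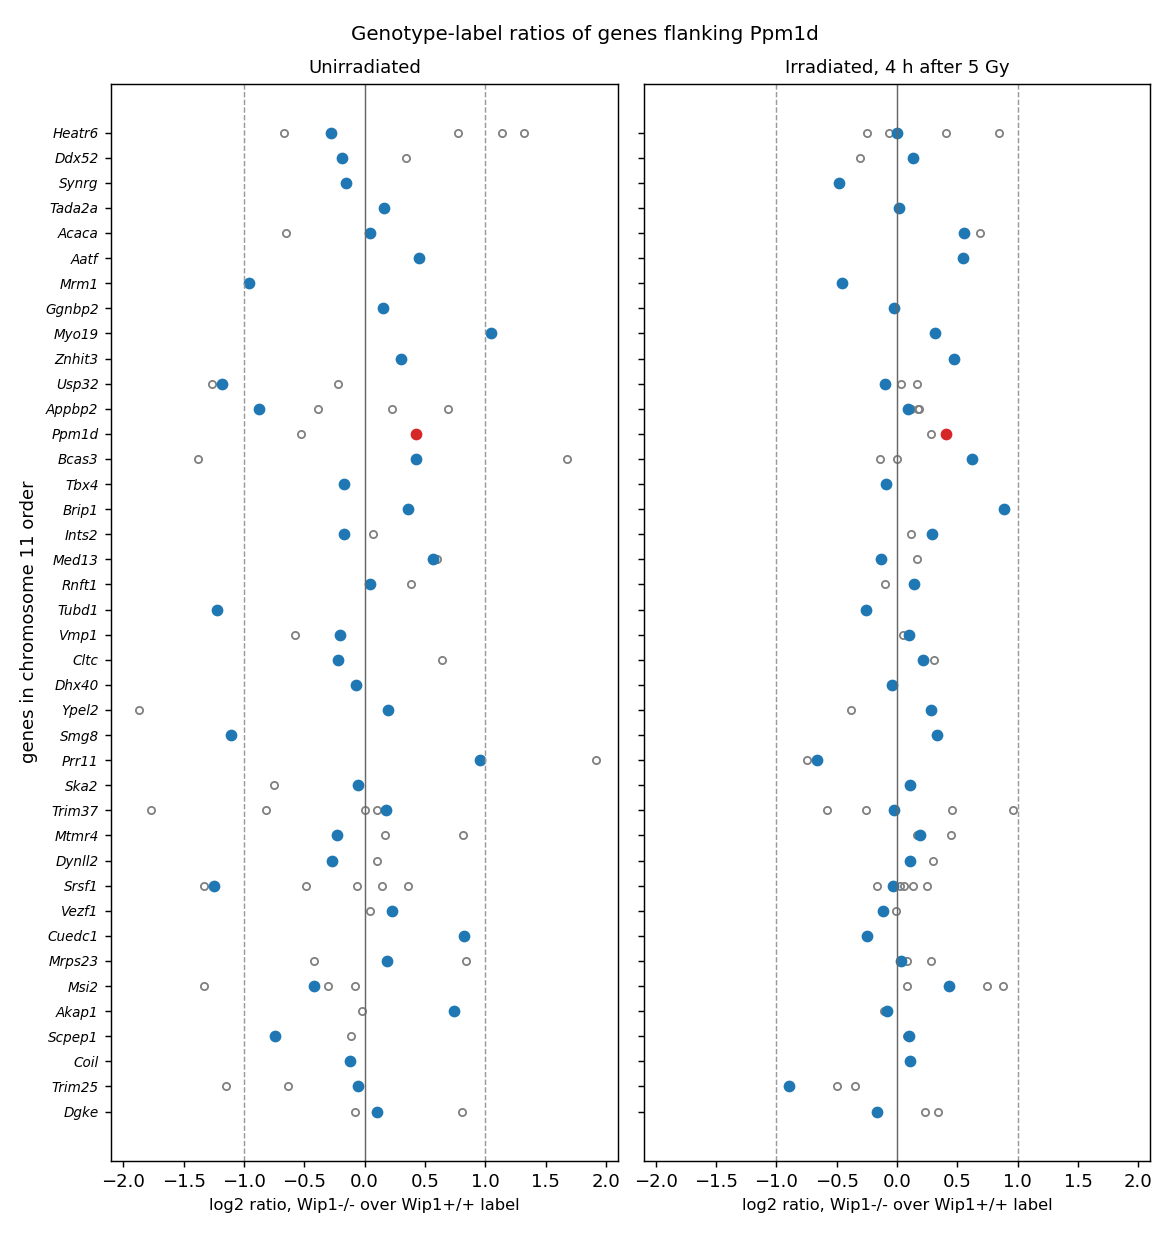
Log2 ratio of the array labelled Wip1-/- over the Wip1+/+ array for the 39 measured flanking genes (blue) and Ppm1d (red), in chromosome order from top to bottom, without irradiation (left) and 4 h after 5 Gy (right). Filled points are the brightest probe set of each gene, open circles its other probe sets past the filter, and dashed lines mark 2-fold; 5 filled points lie past the lines on the left and 0 on the right.

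The comparison of genotypes after irradiation showed 0 of the 39 flanking genes at least 2-fold apart, where 5.29% of all measured genes were. By direction, 0 members were higher and 0 lower, where 2.35% and 2.94% of all genes were. The log2 ratios of the members ran from -0.90 for Trim25 to 0.88 for Brip1, with a median of 0.09 beside -0.005 over all genes. The median size of the log2 ratio, without its sign, was 0.143 over the members and 0.191 over all genes. Without irradiation these sizes were 0.225 and 0.402, and the signed medians -0.06 and 0.05. Both arrays of this comparison had alike spike-in controls, and the SD between probe sets was 0.41 over all genes and 0.30 over the members.

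Trim25 read 707 on the array labelled Wip1-/- and 1315 on the Wip1+/+ array after irradiation, which is 1.86-fold lower. Without irradiation its brightest probe set read 1297 and 1347, a difference whose log2 ratio of -0.06 became 0.014 when arrays were scaled to the median of brighter probe sets. Its second probe set read 784 and 1217 without irradiation and 787 and 1114 after it. The third read 145 and 320, then 243 and 310. The signals of the arrays labelled Wip1-/- thus lay below those of the Wip1+/+ arrays in all 3, by log2 ratios of -0.06 to -1.15. Macrophage markers were lower on the same arrays, with median log2 ratios of -1.65 without irradiation and -1.67 after it over the 16 measured, and their part in the Trim25 difference was not tested.

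Brip1, the helicase FANCJ of homologous recombination, was the other extreme. It read 150.3 on the array labelled Wip1-/- and 117.0 on the Wip1+/+ array without irradiation. After irradiation it read 85.7, against a Wip1+/+ reading of 38.5 that lies under the floor of 46.5, so it was at least 1.84-fold higher. Its mean signal of 97.9 was the lowest of the 39 members, and with no floor or a floor at the 25th percentile it passed 2-fold. Over the mean of both Wip1+/+ arrays its irradiated log2 ratio was 0.22 and its unirradiated one 1.03. The labels overlapped, since the irradiated reading of the cells labelled Wip1-/- lay below the unirradiated Wip1+/+ reading.

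The 2 genotype comparisons share no array, so their ratios were set side by side. In 0 of the 39 members was the ratio at least 1.5-fold in the same direction in both, where 6.12% of all measured genes met this rule and 2.07% met it at 2-fold. The sign was the same in 19 members and opposite in 20, where 56.0% of all genes had the same sign. Across the 39 members the 2 ratios had a Pearson r of 0.09 and a Spearman rho of 0.08, and across all measured genes 0.32 and 0.21. These are descriptions across genes, which share the same 4 libraries and are not independent replicates.

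**Figure D2:**
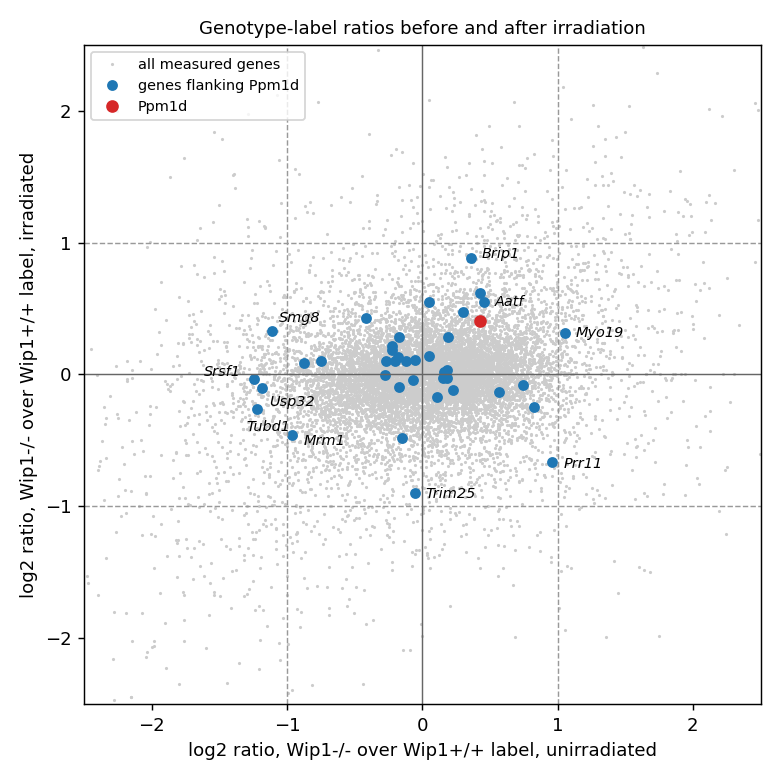
Log2 ratio of the array labelled Wip1-/- over the Wip1+/+ array without irradiation (x) and after irradiation (y), for all measured genes (grey), the 39 flanking genes (blue) and Ppm1d (red), with dashed lines at 2-fold. Usp32, Srsf1, Tubd1 and Smg8 lie past 2-fold on the left and Myo19 on the right, and no flanking gene lies past 2-fold on the vertical axis; 50 genes fall outside the plotted range of -2.5 to 2.5.

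A looser rule was whether both arrays labelled Wip1-/- lay outside the range of both Wip1+/+ arrays, whatever the size. This held for 12 of the 39 members, or 30.8%, where 39.6% of all measured genes met it. Of the 12, 9 were higher, namely Aatf, Acaca, Tada2a, Myo19, Znhit3, Bcas3, Rnft1, Ypel2 and Mrps23, and 3 were lower, namely Tubd1, Srsf1 and Trim25. The rates over all genes were 20.9% higher and 18.7% lower. All 12 were named after their values were seen. Other probe sets past the filter did not all go the same way as the brightest. That of Ypel2 gave log2 ratios of -1.87 without irradiation and -0.38 after it. That of Acaca gave -0.65 and 0.68, and that of Rnft1 0.38 and -0.10. Those of Mrps23 gave -0.42 and 0.08, and 0.84 and 0.28. Those of Srsf1 included -1.33 and 0.06, and 0.36 and 0.25, and none of them separated the labels in this way.

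Aatf, an RNA polymerase II binding factor that opposes apoptosis, read 669 on the array labelled Wip1-/- and 489 on the Wip1+/+ array without irradiation, and 716 and 489 after it. The 2 readings of each label were close to each other, and the ratios were 1.37- and 1.46-fold. Znhit3, a zinc finger protein, read 691 and 561 without irradiation and 586 and 422 after it, which is 1.23- and 1.39-fold higher. Each rests on 1 probe set. Their log2 ratios of 0.45 and 0.30 without irradiation were under the SD of 0.65 between probe sets of a gene. Those of 0.55 and 0.47 after it were above the SD of 0.41. Because this SD does not cover differences between cultures, it is no measure of error for either gene. Bcas3, a cytoskeletal protein and the first gene after Ppm1d, read 217 and 162, then 300 and 196, by its brightest probe set, while a second probe set gave log2 ratios of -1.38 and -0.0026. The other one passed the filter only through a high reading on the unirradiated array labelled Wip1-/-.

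**Figure D3:**
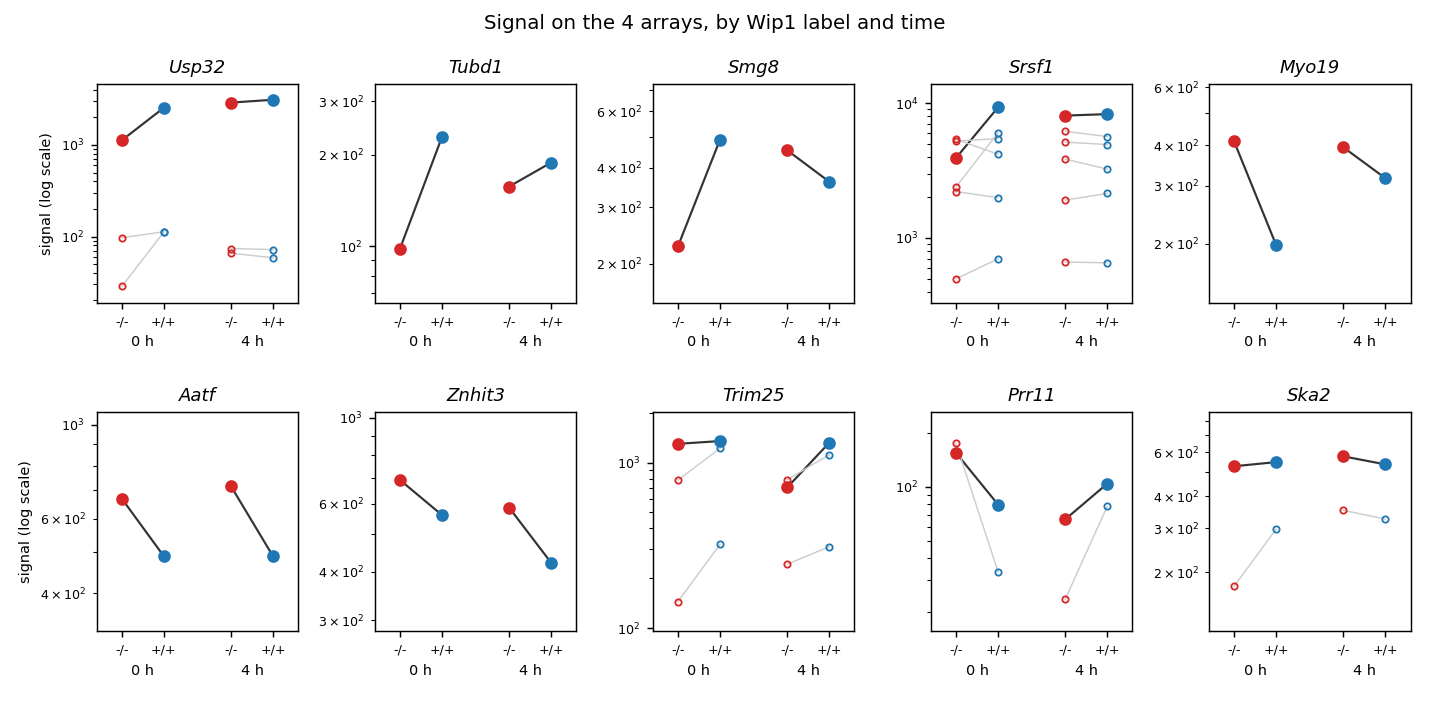
Signal on each of the 4 arrays (log axis) for 10 flanking genes, with the array labelled Wip1-/- (red) left of the Wip1+/+ array (blue) at 0 h without irradiation and at 4 h after it. Filled points joined by dark lines are the brightest probe set and open points the others past the filter; Usp32, Smg8 and Srsf1 are low on the unirradiated array labelled Wip1-/-, while Aatf and Znhit3 are higher on both arrays labelled Wip1-/-.

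Close to Ppm1d, the 5 nearest measured members on each side did not share a direction. Before it, Appbp2, a substrate receptor of a cullin ubiquitin ligase that also binds the amyloid precursor protein, read 1182 and 2173 without irradiation, then 2336 and 2196, with log2 ratios of -0.88 and 0.09. Its 3 other probe sets past the filter gave -0.39 to 0.69, then 0.12 to 0.18. Usp32 and Znhit3 are given above, as is Myo19. Ggnbp2, a zinc finger protein known from spermatogenesis, read 2349 and 2108, then 1716 and 1750.

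After Ppm1d, Tbx4, a T-box factor of hindlimb development, read 146.2 and 164.8, then 171.7 and 183.3, so its log2 ratios were -0.17 and -0.09. Ints2, a subunit of the Integrator complex, had -0.17 and 0.29. Med13, a subunit of the Mediator kinase module, had 0.56 and -0.14. No ratio of these 3 genes exceeded the SD between probe sets in its comparison. In the first 10 measured genes before Ppm1d, 3 were at least 2-fold apart without irradiation and 0 after it. In the first 10 after it, 1 and 0 were. In genes 11 to 20 the counts were 4 and 3 before Ppm1d and 2 and 0 after it. In genes 21 to 30 they were 3 and 3 before it, with 0 members among them, and 1 and 1 after it. Over all genes the shares were 12.0% and 5.29%.

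Of the 8 measured genes between the members that are not on the list, 4 (4930556N13Rik, Brip1os, Dhrs11 and Dusp14) were lower on both arrays labelled Wip1-/- than on both Wip1+/+ arrays, and 0 were higher. This is 50% of the 8, where 7.69% of members and 18.7% of all genes were lower in this way. Only 1 of the 8 passed 2-fold in both comparisons. It was 4930556N13Rik, a predicted transcript next to Akap1, which read 10.3 on the array labelled Wip1-/- and 178.0 on the Wip1+/+ array without irradiation, and 27.7 and 146.7 after it. Both readings on the arrays labelled Wip1-/- lie under the floor, so it was at least 3.83- and 3.15-fold lower. However, 4930556N13Rik passed the filter only through its high Wip1+/+ readings. Its lower direction was thus fixed by entry and adds no support, here or as 1 of the 4 genes counted above. Appbp2os, antisense to Appbp2, read 187.9 and 62.9, then 88.7 and 129.7, so its direction turned. Brip1os, beside Brip1, had log2 ratios of -0.26 and -0.24. Gdpd1, Elobl and 2210409E12Rik had unirradiated log2 ratios of -0.01, -0.08 and -0.04 and irradiated ones of 0.21, 0.86 and -0.04.

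On the other side, Dhrs11 had log2 ratios of -0.06 and -0.19 and Dusp14 -0.75 and -0.01. Past the first member of the list lay Ccl4 and Ccl6, chemokines of macrophages. Ccl6 read 4.0 and 202.9, then 6.0 and 302.0, at least 4.36- and 6.49-fold lower on the arrays labelled Wip1-/-. Ccl4 read 28.6 and 152.7, then 90.5 and 179.6. Ccl6 passed the filter only through its high Wip1+/+ readings, and so did Ccl4 by the mean of its readings under each label. Their lower direction was thus fixed by entry. The summed macrophage markers given above were lower on the same arrays, and their part in these differences was not tested.

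Across the genome, the shares of genes at least 2-fold apart without irradiation were 12.8% of the members, 25% of the 8 other genes between them, 12.6% of 905 other genes of chromosome 11 and 11.9% of 10578 genes on other chromosomes. After irradiation they were 0%, 12.5%, 5.86% and 5.27%. The 12.5% is 4930556N13Rik alone, which passed the filter only through the Wip1+/+ arrays. At a mean signal of at least 500, 2 of 23 members were at least 2-fold apart without irradiation, where 5.78% of all such genes were, and 0 after it, where 1.31% were. The difference between members and other genes was not tested.

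**Figure D4:**
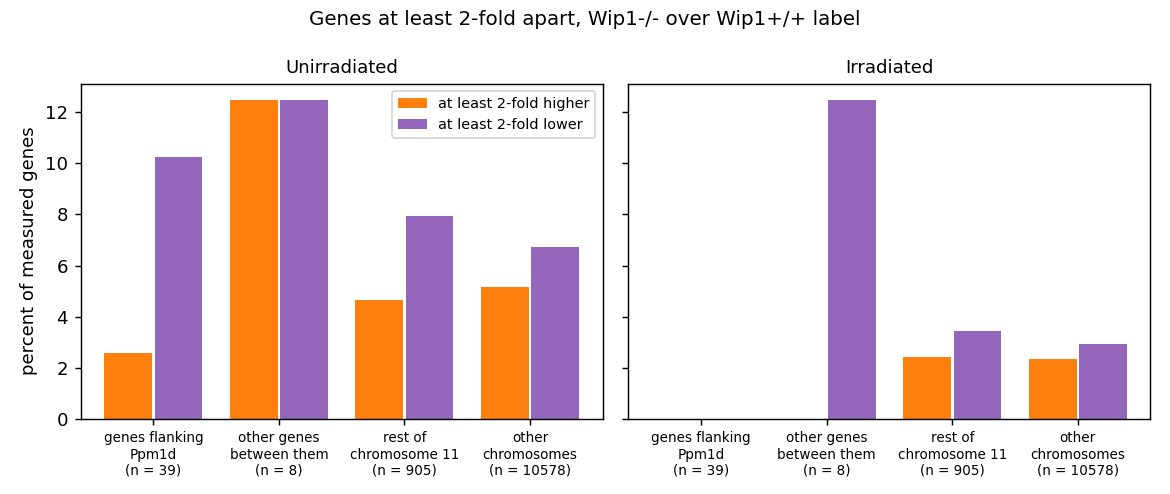
Percent of measured genes at least 2-fold higher (orange) and lower (purple) on the array labelled Wip1-/- than on the Wip1+/+ array, for the flanking genes, the other genes between them, the rest of chromosome 11 and the other chromosomes, without irradiation (left) and after it (right). The flanking genes stand at 2.56% higher and 10.3% lower on the left and have no bar on the right, where 0 of 39 passed 2-fold.

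By role, 2 of the 7 members of RNA processing and decay, Smg8 and Srsf1, were at least 2-fold lower without irradiation. Over all genes 6.83% were. This comparison uses the unirradiated array labelled Wip1-/-, whose spike-in controls stood apart. All 7 (Ddx52, Mrm1, Dhx40, Smg8, Srsf1, Msi2 and Coil) had log2 ratios below 0, from -1.24 to -0.07 with a median of -0.42, where 5352 of all 11547 genes were below 0. After irradiation 4 were above 0 and 3 below, with a median of 0.10. With the median over each gene's probe sets, 6 were below 0 and 1 above. On the array labelled Wip1-/- the 4 members of vesicles and membranes (Cltc, Vmp1, Synrg and Mtmr4) were also all below 0 without irradiation, by a median of -0.21, but 2 were above 0 with the median over probe sets and 1 when probe sets ending in _x_at or _s_at were left out or over the mean of both Wip1+/+ arrays. These lists were counted and not tested.

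Members of transcription and chromatin, 8 measured of 11, had medians of 0.19 without irradiation and -0.01 after it, with 0 at least 2-fold apart in either. Over all genes 12.0% and 5.29% were at least 2-fold apart. Those of mitosis and cytoskeleton, 5 of 6, had medians of -0.06 and 0.10, with Tubd1 lower and Myo19 higher. Ubiquitin genes, 5 of 6, had -0.06 and -0.03, with Usp32 lower. The unirradiated ubiquitin median was -0.63 when probe sets ending in _x_at or _s_at were left out, and 0.014 with scaling to the median of brighter probe sets. Genes of metabolism and signalling, 4 of 7, had 0.08 and 0.01. The 4 genes with other roles had 0.31 and 0.14. With the median over each gene's probe sets, the medians of metabolism and signalling were -0.10 and 0.16. Those of the other roles were then 0.60 and -0.03, so signs in both lists changed with the choice of probe set. Mrps23, a mitochondrial ribosomal protein, read 1149 and 1013 without irradiation and 1116 and 1090 after it.

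The 2 brightest members, Cltc and Scpep1, differed by less than 2-fold between the arrays of each comparison. Cltc, the clathrin heavy chain, read 13275 and 15479 without irradiation, then 16239 and 13965. Scpep1, a lysosomal carboxypeptidase, read 8132 and 13641, then 13056 and 12192. Its second probe set read 9331 and 10071, then 11222 and 10585, so the unirradiated array labelled Wip1-/- was the lowest of the 4 in both probe sets, by less in the second. Vmp1, a membrane protein of autophagosome formation, read 5556 and 6394, then 6929 and 6466.

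The head-to-head pair behaved differently within itself. Prr11 read 155.1 on the array labelled Wip1-/- and 79.7 on the Wip1+/+ array without irradiation, and 65.8 and 104.3 after it. It was 1.95-fold higher and then 1.58-fold lower. Its other probe set passed the filter only through a high reading on the unirradiated array labelled Wip1-/- and was not used beside it. Ska2 read 527 and 548, then 577 and 536, within 1.08-fold in both. Its other probe set gave -0.75 and 0.12 on the log2 scale. Prr11 was dim, with a mean signal of 101.2, the next to lowest of the members.

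Irradiation asked whether these neighbours respond to DNA damage, and in which cells. In cells labelled Wip1-/-, 6 of the 39 members, or 15.4%, were at least 2-fold apart from the unirradiated array, where 10.3% of all genes were. By direction 4 were higher, against 5.70% of all genes, and 2 lower, against 4.63%. Usp32 was 2.58-fold higher, Msi2, an RNA-binding regulator of translation, 2.16-fold, Srsf1 2.06-fold and Smg8 2.00-fold. Prr11 was 2.36-fold lower and Cuedc1, a protein with a ubiquitin-binding CUE domain, 2.08-fold lower. In all 6 genes the unirradiated array labelled Wip1-/- held the extreme of the 4 readings. Msi2 read 403 irradiated and 187 unirradiated in cells labelled Wip1-/-, against 299.2 and 249.3 in Wip1+/+ cells, and Cuedc1 read 181 and 375, against 214 and 212.

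In Wip1+/+ cells, 1 of the 39 members, or 2.56%, was at least 2-fold apart, where 3.07% of all genes were. This gene was Brip1, which read 38.5 irradiated and 117.0 unirradiated, at least 2.52-fold lower against the floor. In cells labelled Wip1-/- it read 85.7 and 150.3, 1.75-fold lower, so both labels had the lower signal after irradiation. The next lowest was Synrg, a partner of the AP-1 clathrin adaptor, at 114.6 and 166.2, 1.45-fold lower. It was 1.83-fold lower in cells labelled Wip1-/-, at 81.9 and 149.7. The highest were Myo19, 1.60-fold, and Mrm1, 1.39-fold. At a mean signal of at least 500, 2 of 23 members were 2-fold apart in cells labelled Wip1-/-, against 4.30% of such genes, and 0 of 23 in Wip1+/+ cells, against 0.0781%. Unirradiated cells at 4 h were not analysed here, so radiation and time in culture cannot be told apart.

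Of the 10 members without a value in these comparisons, 6 were below the filter. Lhx1, a LIM homeobox factor, and Rnf43, a ubiquitin ligase that removes Wnt receptors, read under 50 on every array. Tbx2, a T-box repressor of senescence, read 34.7 and 55.4 without irradiation, then 100.5 and 23.7. Car4, a membrane carbonic anhydrase, and Tex14, a protein of germ cell bridges, had at most 96.9 and 81.9. Pigw, Ptrh2 and Rps6kb1 had no probe set named for them. Supt4a, a transcription elongation factor subunit, shares its probe set with Supt4b, and that set read 2576 and 1941, then 2171 and 1866.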

How the data were processed

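The authors hybridized RNA from mouse embryonic fibroblasts to 4 arrays, 1 per group. The authors deposited a linear signal intensity per probe set and array. The software named in the submitters' processing notes is GCOS, with no version, and its settings were not stated in the sources used here. The mean after trimming 2% at each end was 500.0 in each column, so no renormalization was done.

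Probe sets were named by the platform annotation, and 34945 of 45101 had 1 symbol. Values under 46.5, the 40th percentile, were set to that floor before log2. A gene entered if the mean of its brightest probe set over the arrays was at least 67.95, the median over probe sets. A fold against the floor is a lower bound. The list of genes and the role lists were chosen with earlier results of these data known. Named genes were those at least 2-fold apart, the nearest neighbours of Ppm1d, the brightest and dimmest, those with the widest irradiation ratios, head-to-head pairs, 1 gene per role list not yet covered, and neighbours off the list. Other genes are marked as chosen after their values were seen. The values of 1 gene below the filter are not reported here. Gene order came from RefSeq (GRCm38.p6). Counting at 2-fold was tested on simulated data with larger planted changes, in bright genes and with little noise. That check does not cover dim genes or noise of the size seen here. The alternatives, such as other normalizations, floors and filters, are given at the end. The number of arrays limits the precision. Python 3.11.15, numpy 2.4.6, pandas 2.3.3, R 4.3.3 and limma 3.58.1 were used.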

Additional observations from a re-analysis of the deposited data

Results flagged for a closer look

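In 4 of 39 flanking genes, or 10.3%, the irradiation ratio was at least 2-fold in cells labelled Wip1-/- and had the opposite sign in Wip1+/+ cells, where 4.53% of all measured genes met this rule. With 1 array per group this difference was not tested. Smg8 had a log2 ratio of 1.002 in cells labelled Wip1-/- and -0.44 in Wip1+/+ cells. Prr11 had -1.24 and 0.39. Srsf1 had 1.04 and -0.17. Cuedc1 had -1.05 and 0.016. The count is not stable. The Wip1+/+ value of Cuedc1 is close to 0 and reached -0.0061 under an alternative setting, and under others the Wip1-/- value of Smg8 was as low as 0.92 and that of Srsf1 as low as 0.33. All 4 rest on the unirradiated array labelled Wip1-/-, whose spike-in controls stood apart.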

How the results depend on the processing

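No paired analysis was possible because each group held 1 array. Of 12 alternatives, 11 were planned and 1, taking probe choice, floor and filter from the 3 arrays other than the unirradiated one labelled Wip1-/-, was chosen after seeing the data. Without irradiation, the number of members at least 2-fold higher was 2 with scaling by the median of brighter probe sets and with the median over probe sets, and 0 with a filter at a mean of 500, where 2 were lower. After irradiation, 1 member was at least 2-fold higher with a floor at the 25th percentile and with no floor (Brip1 in both), and with no filter (Tbx2). Over the mean of both Wip1+/+ arrays, 1 member (Myo19) was at least 1.5-fold higher in both comparisons. The other counts stayed within 1.5 times, and the median log2 ratio of the members stayed between -0.06 and 0.01 without irradiation and between 0.01 and 0.10 after it. No called gene changed direction under these settings. By single probe sets, Srsf1 without irradiation had log2 ratios of 0.36 and 0.15, opposite to its brightest. Myo19 and Smg8 fell below 2-fold over the mean of both Wip1+/+ arrays, and Srsf1 with the median over probe sets. Over the mean of both Wip1+/+ arrays, Mrm1 was at least 2-fold lower and Brip1 at least 2-fold higher without irradiation. How far a signal stands over background limits the dim genes, such as Brip1, Prr11 and Tubd1.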
